A study of Mus musculus with 8 samples.

Results

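The BCL2 family genes that decide between survival and death at the mitochondrion were followed in cultured mouse peritoneal mast cells (PMCs), connective tissue-type mast cells grown from peritoneal cells. The members were taken by name from the gene table: the pro-survival genes Bcl2, Bcl2l1, Mcl1 and Bcl2a1b, the effectors Bax and Bak1, and the BH3-only genes Bcl2l11, Bbc3, Pmaip1 and Bid. They made up 10 of the 55359 genes listed, and 9 of them passed the filter on low counts. All cells came from untreated wild-type mice of the C57BL/6x129/Sv strain. The 8 libraries of total RNA comprised 6 primary PMC cultures, 3 from female and 3 from male mice, and 1 library each of PMC-303 and PMC-306. PMC-303 and PMC-306 are separate lines that arose spontaneously from primary PMCs in long culture. Both lines were kept in medium with less fetal calf serum and less stem cell factor (SCF) than the primary cultures, so that transformation, time in culture and medium cannot be told apart. With 1 library per line, the comparison of lines with primary cultures took the lines as 2 samples of a transformed state; a single line could be set against the primary cultures only by assuming that its 1 library varies like them.

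Proteins of the BCL2 family control whether the outer mitochondrial membrane is permeabilised. The pro-survival members hold the effectors BAX and BAK in check, BH3-only proteins are raised by stress and bind the pro-survival members or the effectors, and active BAX or BAK releases cytochrome c, which starts the caspase cascade. Mast cells depend on SCF and its receptor KIT for survival, and loss of this signal is known to raise the BH3-only protein BIM.

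Total estimated counts ranged from 15918757 to 24180226 per library, and 3 counts corresponded to 0.123 to 0.187 CPM. CPM are counts per library total after trimmed-mean (TMM) correction. The 100 most abundant genes took 25.2% and 25.4% of the counts in the lines and 30.7 to 34.9% in the primary cultures. All 9 mast cell markers examined were expressed in every library, with a summed level of 40122 and 43362 CPM in the lines and 46914 to 73670 CPM in the primary cultures. Of these markers 4 were lower in the lines by limma, among them Kit (log2 fold -0.88, adjusted p = 0.000886), the IgE receptor subunit Fcer1a (log2 fold -1.36, adjusted p = 0.0031) and the CD13 gene Anpep (log2 fold -2.68, adjusted p = 8.03e-05), and 5 were not called. Summed macrophage markers reached 5.06 and 15.2 CPM in the lines and 3.27 to 22.3 CPM in the primary cultures, with C1qb at 0 counts in all libraries. Summed B cell, T cell, neutrophil and mesothelial or fibroblast markers stayed at or below 0.315 CPM in every library, with S100a8 at 0 in all. For any gene in such bulk samples, fewer cells of a type and less RNA per cell cannot be told apart.

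In both lines Bcl2, Bcl2l1, Bax, Bbc3 and Bid were lower than in primary PMCs and Bak1 was higher, whereas Mcl1, Bcl2l11 and Pmaip1 did not pass the test. Thus 6 of the 9 members tested were called at an adjusted p under 0.05, against 33.9% of all 14529 genes tested. Lower calls numbered 5 among the members against a background of 15.5%, and higher calls numbered 1 against 18.3%. In CPM both lines lay outside the whole primary range on the same side for these 6 members, where 43.1% of all genes tested did. Of these members 5 lay below it (20.1% of all genes) and 1 above it (23.0%). The median log2 fold of the 9 members was -0.63, and that of all genes tested was -0.01. All folds are lines against primary PMCs, and the intervals are 95% confidence intervals of the limma fit. The labels call the primary cultures biological replicates, but each line adds only 1 library. The p-values rest on the spread within the groups, which comes mainly from the primary cultures.

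**Figure D1:**
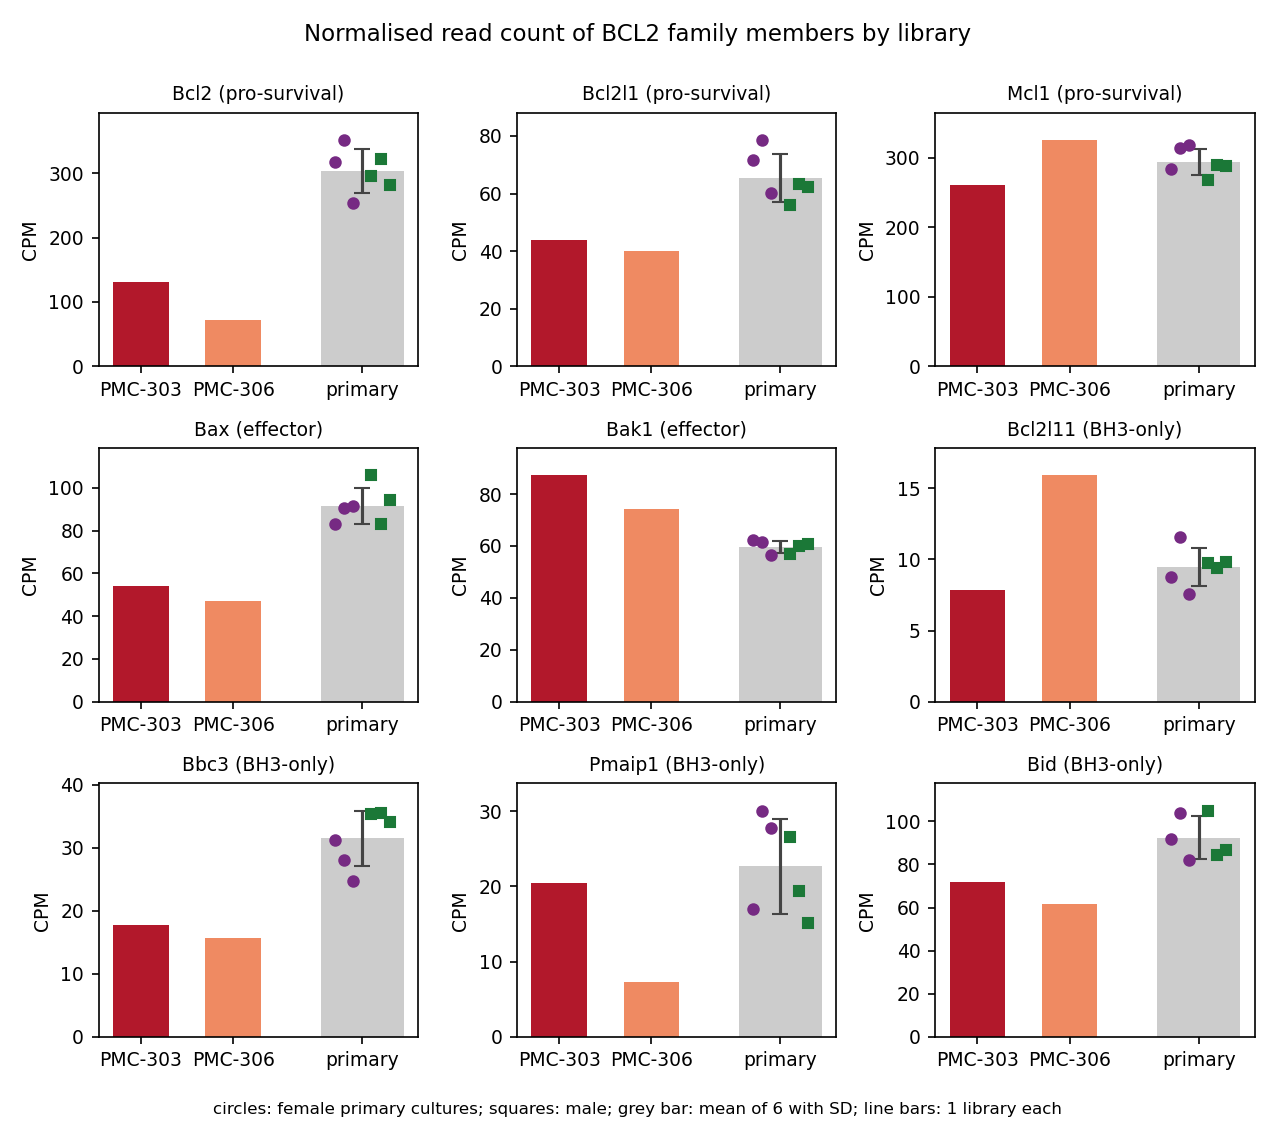
Level of each tested member in CPM (TMM-scaled) in PMC-303, PMC-306 and the primary PMCs. Line bars are 1 library each, and the primary bar is the mean ± SD of 6 cultures with circles for female and squares for male cultures. For Bcl2, Bcl2l1, Bax, Bbc3 and Bid both line bars lie under all primary points, and for Bak1 both lie above them. Bcl2a1b, which did not pass the filter, is not drawn.

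Among the pro-survival genes, Bcl2 showed the largest difference of the 9 members tested. Bcl2 (ENSMUSG00000057329, GRCm39 chr1:106465908-106642060, minus strand) encodes the founding member of the family, which sits in the outer mitochondrial and endoplasmic reticulum membranes. Its 2 annotated transcripts end differently: Bcl2-201 splices to a distant exon that encodes the membrane-anchoring tail, while Bcl2-202 reads on past the splice site and ends after 24 further bases, stop codon included. The 2 ends are shown because only the first provides the tail. In the following sequences (GRCm39, minus strand) capitals mark the coding end with its stop codon, at chr1:106470994-106471128 for Bcl2-201 and at the end of chr1:106640011-106640046 for Bcl2-202, where lower case gives the last bases of the shared coding sequence.
Bcl2-201 end: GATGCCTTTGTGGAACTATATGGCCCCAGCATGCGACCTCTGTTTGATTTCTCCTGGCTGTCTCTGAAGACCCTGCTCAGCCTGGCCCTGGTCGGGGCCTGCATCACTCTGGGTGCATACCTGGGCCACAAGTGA
Bcl2-202 end: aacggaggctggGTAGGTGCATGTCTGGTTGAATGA

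In PMC-303 Bcl2 was measured at 131 CPM, and in PMC-306 at 72.8 CPM. In the female cultures it stood at 318, 351 and 254 CPM and in the male cultures at 295, 321 and 281 CPM. Both lines thus lay well under the lowest primary culture, with PMC-306 the lower of the pair. Against the primary mean of 303.4 ± 34.2 CPM (SD, n = 6), Bcl2 was 3.09-fold lower (log2 fold -1.63, SE 0.20, interval -2.09 to -1.16, limma adjusted p = 0.00062). Taken singly, the log2 fold was -1.20 for PMC-303 and -2.05 for PMC-306. Of the gene's counts the anchored form, Bcl2-201, held 91.5% in PMC-303 and 88.1% in PMC-306, against 87.6 to 91.1% in the primary cultures. PMC-303 lay just above this range and PMC-306 within it.

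Bcl2l1 (ENSMUSG00000007659, GRCm39 chr2:152622582-152673655, minus strand), which encodes BCL-XL, was lower by a smaller amount. PMC-303 had 43.8 CPM, PMC-306 40.02 CPM. The female cultures held 71.6, 78.5 and 60.3 CPM and the male cultures 56.2, 63.2 and 62.3 CPM, with a mean of 65.4 ± 8.20 CPM (SD, n = 6). The groups did not overlap, and the lines were 1.55-fold lower (log2 fold -0.63, SE 0.13, interval -0.92 to -0.35, limma adjusted p = 0.00569). Bcl2l1-202, the transcript with the largest share in both lines and in 4 of the 6 primary cultures, took 61.9% and 44.4% of the gene's counts in PMC-303 and PMC-306 and 26.0 to 54.4% in the primary cultures. In male cultures 1 and 3 Bcl2l1-201 led instead, with 46.6% and 58.0%. PMC-303 lay above the primary range of Bcl2l1-202 and PMC-306 within it.

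Mcl1 (ENSMUSG00000038612, GRCm39 chr3:95566026-95570487, plus strand) encodes a short-lived pro-survival protein with fast turnover. PMC-303 showed 260 CPM, whereas PMC-306 showed 325 CPM. The female cultures gave 283, 313 and 319 CPM and the male cultures 268, 290 and 288 CPM, with a mean of 293 ± 19.1 CPM (SD, n = 6). PMC-303 fell just under the lowest primary culture and PMC-306 just above the highest. The joint log2 fold was -0.01 (SE 0.10, interval -0.24 to 0.22, limma adjusted p = 0.944), so that a change beyond this interval in either direction was not detected. This value had no stable sign, at 0.10 with scaling by total counts and 0.13 on deposited TPM. Placement of the lines on opposite sides of the primary range occurred in 4.38% of all genes tested.

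Bcl2a1b (ENSMUSG00000089929, GRCm39 chr9:89081262-89089889, plus strand), a copy of the gene for A1, which is known to be induced in activated mast cells, had 1 count in male culture 3 and 0 counts in the other 7 libraries. A count of 0 allows up to 3 counts per library, which is 0.187 CPM in the shallowest. Its near-identical paralogs Bcl2a1a and Bcl2a1d share reads with it and stood at 0 in all 8 libraries, so A1 transcripts were not detectable at this depth in these untreated cells.

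In gene totals, the 2 effector genes differed in opposite directions. Bax (ENSMUSG00000003873, GRCm39 chr7:45111015-45116325, minus strand) encodes the effector that shuttles from the cytosol to mitochondria. For PMC-303 the Bax level was 53.9 CPM, for PMC-306 46.8 CPM. The female cultures held 82.9, 90.5 and 91.4 CPM and the male cultures 106, 82.9 and 94.3 CPM, with a mean of 91.3 ± 8.48 CPM (SD, n = 6). The lines lay under every primary culture, and Bax was 1.81-fold lower (log2 fold -0.86, SE 0.11, interval -1.10 to -0.62, limma adjusted p = 0.000566).

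Bak1 (ENSMUSG00000057789, GRCm39 chr17:27238784-27247983, minus strand) encodes BAK, the effector that resides in the mitochondrial membrane. It reached 87.2 CPM in the PMC-303 library and 74.1 CPM in that of PMC-306. The female cultures gave 62.3, 61.7 and 56.7 CPM and the male cultures 57.1, 59.9 and 60.6 CPM. Bak1 was the least variable member among primary PMCs, with a coefficient of variation of 3.93%, and both lines stood above all of them. The gene was 1.35-fold higher than the mean of 59.7 ± 2.35 CPM (SD, n = 6; log2 fold 0.43, SE 0.08, interval 0.25 to 0.61, limma adjusted p = 0.00406). Against the female cultures alone the log2 fold was 0.42 with a limma adjusted p of 0.0674.

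Expressed per transcript length in TPM, the Bax to Bak1 ratio was 1.19 in PMC-303 and 1.22 in PMC-306. The female cultures had ratios of 2.45, 2.69 and 3.16 and the male cultures of 3.67, 2.78 and 2.86, with a mean of 2.94 ± 0.426 (SD, n = 6). In TPM the ratio was thus nearer to parity in the lines, and Bax exceeded Bak1 by more in every primary culture than in either line. Without the length correction, in CPM, the ratio was 0.618 and 0.632 in the lines and 1.33 to 1.85 in the primary cultures. These are ratios of gene totals, and most Bak1 counts were assigned to transcripts annotated as targets of nonsense-mediated decay. The summed TPM of both effectors was 144 and 128 in the lines and 135 to 187 in the primary cultures, so that the ranges of this sum overlapped. Their summed CPM was 141 and 121 in the lines and 143 to 163 in the primary cultures, which did not overlap.

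**Figure D2:**
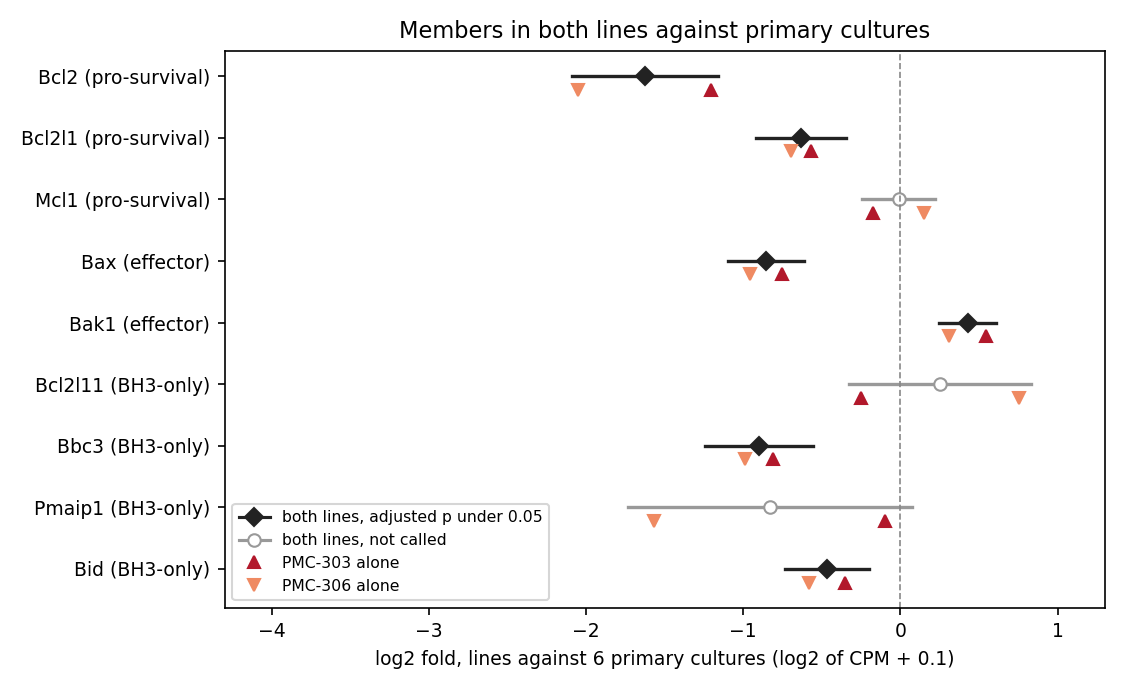
Fitted log2 fold of each tested member, both lines against the 6 primary cultures, with the 95% confidence interval of the limma fit. Diamonds mark members at an adjusted p under 0.05, and triangles give the single-line folds, which carry no test. Bcl2 lies lowest at -1.63, Bak1 is the called member above 0 at 0.43, and the single-line triangles of Pmaip1 and Bcl2l11 stand far apart.

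Among the BH3-only genes, Bbc3 and Bid were lower in both lines, and Bcl2l11 and Pmaip1 differed from line to line. Bbc3 (ENSMUSG00000002083, GRCm39 chr7:16042318-16052130, plus strand) encodes PUMA, a p53-induced protein that can bind all pro-survival members. In PMC-303 it was measured at 17.7 CPM, in PMC-306 at 15.7 CPM. The female cultures held 31.2, 28.03 and 24.7 CPM and the male cultures 35.5, 35.6 and 34.1 CPM. No primary culture came near the lines, and Bbc3 was 1.87-fold lower than the primary mean of 31.5 ± 4.40 CPM (SD, n = 6; log2 fold -0.90, SE 0.15, interval -1.24 to -0.56, limma adjusted p = 0.00258).

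Bid (ENSMUSG00000004446, GRCm39 chr6:120862525-120894171, minus strand) encodes the protein that caspase-8 cleaves to link death receptors to mitochondria. PMC-303 contained 72.0 CPM of it, and PMC-306 61.5 CPM. The female cultures gave 91.9, 104 and 82.2 CPM and the male cultures 105, 84.4 and 86.9 CPM, with a mean of 92.4 ± 9.88 CPM (SD, n = 6). In CPM both lines were under the lowest primary culture, and the joint fold was 1.38 lower (log2 fold -0.47, SE 0.12, interval -0.73 to -0.20, limma adjusted p = 0.0158). In TPM male culture 3, at 36.5, lay under both lines, at 40.6 and 37.2, so that the groups overlapped. Without PMC-306 the Bid call was lost, as the log2 fold was -0.35 with a limma adjusted p of 0.124. It was also lost on deposited TPM (log2 fold -0.29, limma adjusted p = 0.235), against the female cultures alone (limma adjusted p = 0.0803) and against the male cultures alone (limma adjusted p = 0.0662).

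Bcl2l11 (ENSMUSG00000027381, GRCm39 chr2:127967958-128004476, plus strand) encodes BIM, the BH3-only protein that growth factor withdrawal raises in mast cells. PMC-303 had 7.86 CPM, but PMC-306 15.9 CPM. The female cultures held 8.77, 11.6 and 7.54 CPM and the male cultures 9.76, 9.39 and 9.81 CPM, with a mean of 9.47 ± 1.32 CPM (SD, n = 6). PMC-303 thus lay within the primary range and PMC-306 above it. The joint log2 fold was 0.25 (SE 0.25, interval -0.33 to 0.83, limma adjusted p = 0.483). It was 0.75 without PMC-303 and -0.25 without PMC-306, each resting on the 1 library of the remaining line.

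Pmaip1 (ENSMUSG00000024521, on chromosome 18) encodes NOXA, a p53 target that binds MCL1 and A1 in particular. PMC-303 had 20.5 CPM of Pmaip1, but PMC-306 7.32 CPM. The female cultures gave 16.9, 30.05 and 27.8 CPM and the male cultures 26.6, 19.3 and 15.1 CPM, with a mean of 22.6 ± 6.27 CPM (SD, n = 6). PMC-303 lay within the primary range and PMC-306 under it. Pmaip1 was also the most variable member among primary PMCs, with a coefficient of variation of 27.7% and a 1.99-fold span from the lowest to the highest culture. The joint log2 fold was -0.83 (SE 0.40, interval -1.74 to 0.07, limma adjusted p = 0.141). It was -1.57 without PMC-303 and -0.10 without PMC-306, each resting on the 1 library of the remaining line.

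Levels of different genes were set side by side in TPM, which takes transcript length into account. In primary PMCs Bax was the most abundant member at a mean of 121 TPM, with a range of 99.7 to 147 TPM over the 6 cultures. Mcl1 followed at 89.8 TPM (71.3 to 104), ahead of Bcl2 at 50.6 TPM (38.6 to 58.4), Bid at 48.1 TPM (36.5 to 57.1) and Bak1 at 41.4 TPM (34.9 to 45.4). Bcl2l1 at 30.7 TPM (23.8 to 37.3) and Bbc3 at 26.3 TPM (19.9 to 33.7) came next. Pmaip1 at 9.75 TPM (5.24 to 14.5) and Bcl2l11 at 2.64 TPM (2.03 to 3.23) were the scarcest of the detected members. The steps down from Mcl1 to Bcl2, from Bbc3 to Pmaip1 and from Pmaip1 to Bcl2l11 exceeded the spread between cultures. The ranges of all other neighbours in this order overlapped. Compared within each culture, Bax still exceeded Mcl1, Bid exceeded Bak1 and Bak1 exceeded Bcl2l1 in every primary culture. Bcl2 and Bid changed places between cultures, as did Bcl2l1 and Bbc3.

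The order differed in the lines. Mcl1 came first, at 85.9 TPM in PMC-303 and 111 TPM in PMC-306, ahead of Bax at 78.0 and 70.6 TPM and Bak1 at 65.6 and 57.7 TPM. Bcl2 fell behind Bid and stood at 22.8 TPM in PMC-303 and 13.7 TPM in PMC-306, where Bcl2l1 stood at 21.9 and 20.7 TPM. Bcl2 was thus close to Bcl2l1 in PMC-303 and ranked behind it in PMC-306, next to Bbc3 at 13.2 TPM. In PMC-306 Bcl2l11 at 4.72 TPM exceeded Pmaip1 at 3.17 TPM, the reverse of every other library.

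**Figure D3:**
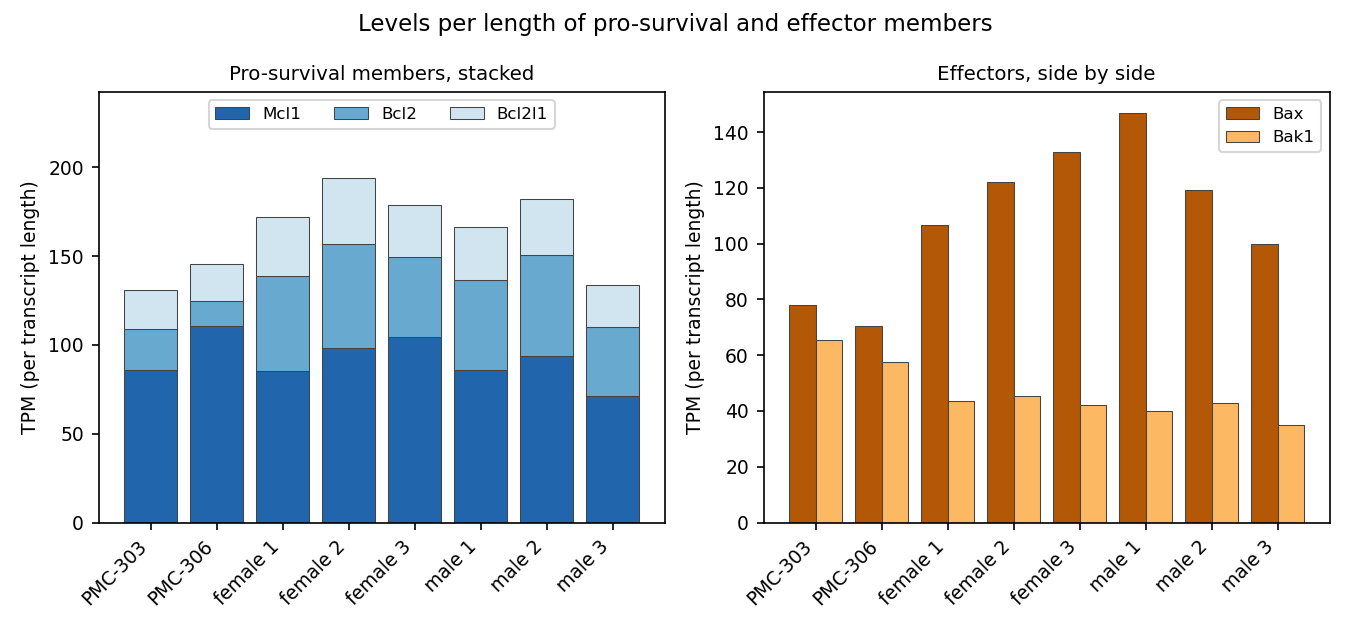
TPM of the detected pro-survival members Mcl1, Bcl2 and Bcl2l1, stacked by gene, and of the effectors Bax and Bak1, side by side, in each of the 8 libraries. Mcl1 takes 65.7% and 76.3% of the pro-survival stack in PMC-303 and PMC-306 against 49.7 to 58.4% in the primary cultures. Bak1 comes nearer to Bax in the lines than in any primary culture.

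Within the summed TPM of the pro-survival members, Mcl1 held 65.7% in PMC-303 and 76.3% in PMC-306. In primary PMCs it held 52.5 ± 3.13% (SD, n = 6), with a range of 49.7 to 58.4%. This sum leaves out Bcl2l2, a pro-survival gene outside the members. Bcl2l2 stood at 15.7 TPM in PMC-303, 16.0 TPM in PMC-306 and 14.1 to 19.6 TPM in primary PMCs. The share of Bcl2 was 17.5% and 9.45% in the lines and 29.5 ± 2.18% (SD, n = 6) in primary PMCs, with no overlap. Bcl2l1 held 16.8% and 14.2% against 16.1 to 19.3%, so that PMC-303 stayed within the primary range. Among the pro-survival members, the messages thus held a larger share of Mcl1 and a smaller share of Bcl2 in both lines. The Mcl1 level itself was not called. These shares follow from the same libraries as the folds above and were not tested apart.

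The transcript table added a second readout, the share of a gene's estimated counts that Salmon assigned to each annotated transcript. For Bak1, most counts were assigned to transcripts annotated as targets of nonsense-mediated decay in all libraries. They held 80.8% in PMC-303 and 75.4% in PMC-306, 76.5, 79.1 and 68.9% in the female cultures and 73.7, 84.1 and 80.0% in the male cultures. The higher Bak1 level in the lines was thus not accompanied by a share outside the primary range. Protein-coding transcripts held 19.2% and 24.6% in PMC-303 and PMC-306 and 15.9 to 31.1% in the primary cultures. The higher level is one of the gene total, and the level of the coding transcripts alone was not tested. The canonical Bak1-202 held 0.848% and 5.61% in the lines, 3.34, 0 and 12.1% in the female cultures and 10.3, 0 and 0% in the male cultures.

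The leading Bak1-204 differs from Bak1-202 by 5 bases at the start of exon 3, and the decay-annotated Bak1-201 holds an extra exon of 20 bases. Both places are shown (GRCm39, minus strand) because they carry the frameshifts that separate these transcripts from the canonical one. In the exon 3 sequence (chr17:27241837-27241871) capitals mark the 5 bases that Bak1-202 keeps and Bak1-204 skips, and in the other (chr17:27240625-27240668) they mark the short exon.
Bak1 exon 3 start: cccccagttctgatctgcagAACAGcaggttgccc
Bak1-201 short exon: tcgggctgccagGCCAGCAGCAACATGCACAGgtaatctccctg

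Both bounds of the skipped bases end in AG, the usual end of an intron. Bak1-202 and Bak1-204 also differ in the length of the first exon, 599 against 177 bases, so the deposited counts do not tell which of these differences placed the reads. Bak1-204 held 59.2% and 56.0% in PMC-303 and PMC-306 and 49.7 to 61.2% in the primary cultures. Bak1-201 held 21.6% and 19.4%, inside a wide primary range of 7.70 to 34.4%.

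**Figure D4:**
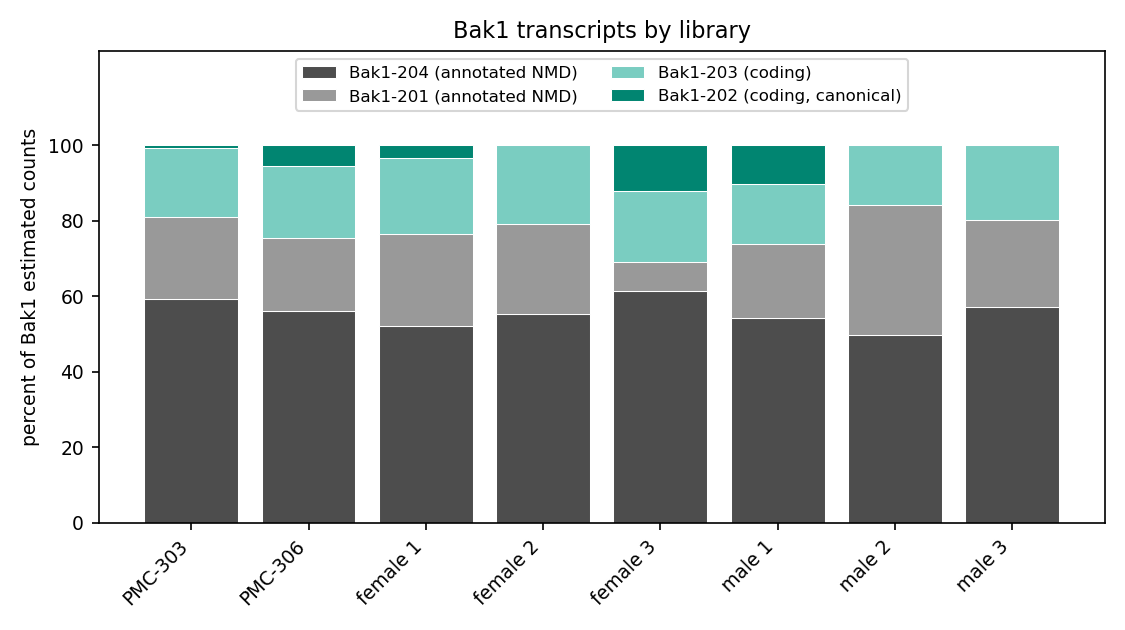
Percent of the Bak1 estimated counts assigned to each annotated transcript in the 8 libraries, stacked. Bak1-204 takes about the same share in the lines (59.2% and 56.0%) as in the primary cultures (49.7 to 61.2%), and the canonical Bak1-202 reaches 12.1% at most.

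The share of the leading transcript was tested for the 9 detected members by an exact permutation test (two-sided, 28 ways of choosing 2 of 8 libraries, smallest possible p = 0.0357). For Bax, the full-length Bax-201 took 65.2% and 64.3% in the lines and 56.0 to 61.3% in the primary cultures. The lines were both above the primary range by a mean difference of 6.10 percentage points, which gave the smallest p the exact test allows, 0.0357, and an adjusted p of 0.321 over the 9 members. With so few ways, a member on its own could not pass the threshold after adjustment, and the test does not show that any share was stable. Bax-203, which keeps the first intron within an exon at chr7:45115644-45116255 (GRCm39), took the smaller share in the lines, 26.6% and 26.7% against 30.9 to 36.4%. The other members had adjusted p-values from this exact permutation test of 0.872 or 1.

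Bbc3 showed a different kind of spread, within the primary cultures. The intron-retaining Bbc3-203 took 38.7% in female culture 1, 31.5% in male culture 1 and 37.9% in male culture 2, but 18.8% and 17.3% in female cultures 2 and 3 and 17.6% in male culture 3. The lines, at 16.6% and 18.4%, stood with the lower cultures. Mcl1-201 carried 100% of the Mcl1 counts in every library, so no shift between its long and short forms was visible in these files. Bcl2l11-204 held 77.7% and 78.8% in the lines and 65.8 to 85.4% in the primary cultures, and Bid-201 held 91.3% and 87.2% against 85.0 to 93.2%.

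Bax, Bbc3 and Pmaip1 are known p53 targets, and a p53 half-site consensus was searched in the RefSeq promoter windows (GRCm38.p6, 250 bases before to 50 after each start). It occurred in 8.36% of all 32851 windows of this length. Of the 14 windows of the 9 members that had one, only that of Bax held a match (7.14%). This match lay 201 to 192 bases before the start. Pmaip1 was the member without a window. Of the 9 windows of the p53 targets outside the family, 5 (55.6%) held a match. These belonged to 4 of the 7 targets that had a window. Zmat3, Trp53inp1 and Perp had no window, and those of Eda2r, Sesn2 and Phlda3 held no match. The sequence is shown because Bax is the lower of the effectors; it lies at chr7:45467080-45467109 (GRCm38.p6, minus strand), and capitals mark the match. A match in this window is a description and not a binding site.
Bax promoter half-site: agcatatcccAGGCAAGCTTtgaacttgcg

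The sexes were compared within the primary cultures, which also served as controls for the lines. No member was called between female and male cultures by limma, where 6 of 13710 genes tested (0.0438%) were called and 456 (3.33%) had an unadjusted p under 0.05. Bbc3 was the 1 member with an unadjusted p under 0.05. It ranged from 24.7 to 31.2 CPM in the 3 female and from 34.1 to 35.6 CPM in the 3 male cultures, and the groups did not overlap, as in 7.97% of all genes. Its female minus male log2 difference was -0.33 (SE 0.10, interval -0.57 to -0.09, limma unadjusted p = 0.0152, adjusted p = 1). The other 8 members had log2 differences from -0.09 for Bax to 0.29 for Pmaip1, each with a limma adjusted p of 1, and overlapping groups.

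The other genes of the pathway were described in 5 lists. These lists, like the members, were chosen with earlier results of these data known. Their shares of calls are therefore descriptions and not tests of the lists. Among 14 further BCL2 family genes, 8 were tested, 2 were higher, 1 was lower and 5 were not called, near the 33.9% called among all genes, with a median log2 fold of 0.07. Bik, a BH3-only gene of the endoplasmic reticulum, reached 2.02 and 2.46 CPM in PMC-303 and PMC-306 and 0.549 ± 0.197 CPM in primary PMCs (SD, n = 6; log2 fold 1.90, SE 0.37, limma adjusted p = 0.00516). Bcl2l15 was called higher on very few counts, 12.8 and 19.4 in the lines and 1.00 to 4.14 in the primary cultures, and the ratio of summed counts per library size was 5.65 with a counting interval of 2.97 to 11.2. Its call was lost without PMC-306. Bcl2l2, which encodes the pro-survival BCL-W, was lower at 42.2 and 39.2 CPM against 53.2 ± 2.73 CPM (SD, n = 6; log2 fold -0.38, limma adjusted p = 0.00534), a call that was lost on deposited TPM and against either sex alone. Bcl2l10, Bcl2a1a, Bcl2a1d, Bok, Hrk and Bcl2l14 did not pass the filter.

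Downstream of the mitochondrion, 11 of 18 genes were higher and the other 7 were not called, where 18.3% of all genes were higher (median log2 fold 0.37). The higher genes were 6 of 9 for release and the apoptosome, 3 of 5 caspases and 2 of 4 inhibitors. Birc5, which encodes survivin, an inhibitor-of-apoptosis family protein with a mitotic role, had the largest rise of the arm at 70.7 and 66.7 CPM against 2.83 to 8.65 CPM (11.3-fold, SE 0.39 on the log2 scale, limma adjusted p = 0.000328).

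In the death receptor arm 7 of 8 genes were tested, 1 was higher, 1 lower and 5 not called, no larger a share than the 33.9% of all genes (median log2 fold -0.08). Casp8, the initiator that cleaves BID, was higher at 90.2 and 108 CPM against 63.4 ± 3.56 CPM (SD, n = 6; log2 fold 0.64, limma adjusted p = 0.00107). The TRAIL receptor gene Tnfrsf10b was lower at 5.81 and 5.79 CPM against 8.86 ± 1.14 CPM (SD, n = 6; log2 fold -0.59, limma adjusted p = 0.0225), a call that held in 11 of 16 alternative settings and was lost without PMC-303, without PMC-306, with scaling by total counts and on deposited TPM. Tnfrsf1a was listed at 0 in all 8 libraries.

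Of 16 regulators of the family, 15 were tested, 1 was higher, 2 were lower and 12 were not called, a smaller share than the 33.9% of all genes (median log2 fold -0.15). Nfkb1, a transcription factor subunit that drives pro-survival genes, was higher at 170 and 145 CPM against 90.4 to 108 CPM (log2 fold 0.63, limma adjusted p = 0.0014). Foxo3, the transcription factor known to induce Bcl2l11 when SCF is withdrawn, was lower at 245 and 199 CPM against 301 to 334 CPM (log2 fold -0.52, limma adjusted p = 0.00292), and lost its call on deposited TPM. Stat5b, which acts downstream of KIT, was lower at 129 and 105 CPM against 136 to 177 CPM (log2 fold -0.39, limma adjusted p = 0.0321). That call held in 7 of 16 alternative settings and was lost without PMC-306, female culture 1, female culture 2 or male culture 1. Trp73 did not pass the filter.

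Of 10 p53 targets outside the family, 9 were tested, 8 were lower and 1 was not called, where 15.5% of all genes were lower (median log2 fold -0.98), and without PMC-306 the lower calls numbered 4. Because this list was chosen with earlier results of these data known, its share of lower genes is a description and not a test. Zmat3, which encodes an RNA-binding protein, stood at 24.5 and 19.7 CPM in the lines against 78.0 ± 6.16 CPM (SD, n = 6; log2 fold -1.82, SE 0.11, limma adjusted p = 5.41e-05). Trp53inp1 was lower at 116 and 133 CPM against 272 to 397 CPM (log2 fold -1.39, limma adjusted p = 0.000255). Eda2r, a TNF receptor family gene, had 3.46 CPM in PMC-303 and 0 counts in PMC-306, against 4.09 to 15.7 CPM in the primary cultures. In PMC-306 it was at least 81.3-fold lower than the primary mean, taking 3 counts of that library as the floor, and its joint call (limma adjusted p = 0.0204) held in 12 of 16 alternative settings and was lost without PMC-306. Perp did not pass the filter. Trp53 itself, outside the naming rule and added after its values were seen, was at 49.7 and 39.5 CPM against 41.1 ± 2.89 CPM (SD, n = 6; log2 fold 0.11, limma adjusted p = 0.459). Among the members, the p53 targets Bax and Bbc3 were called lower and Pmaip1 was not called.

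**Figure D5:**
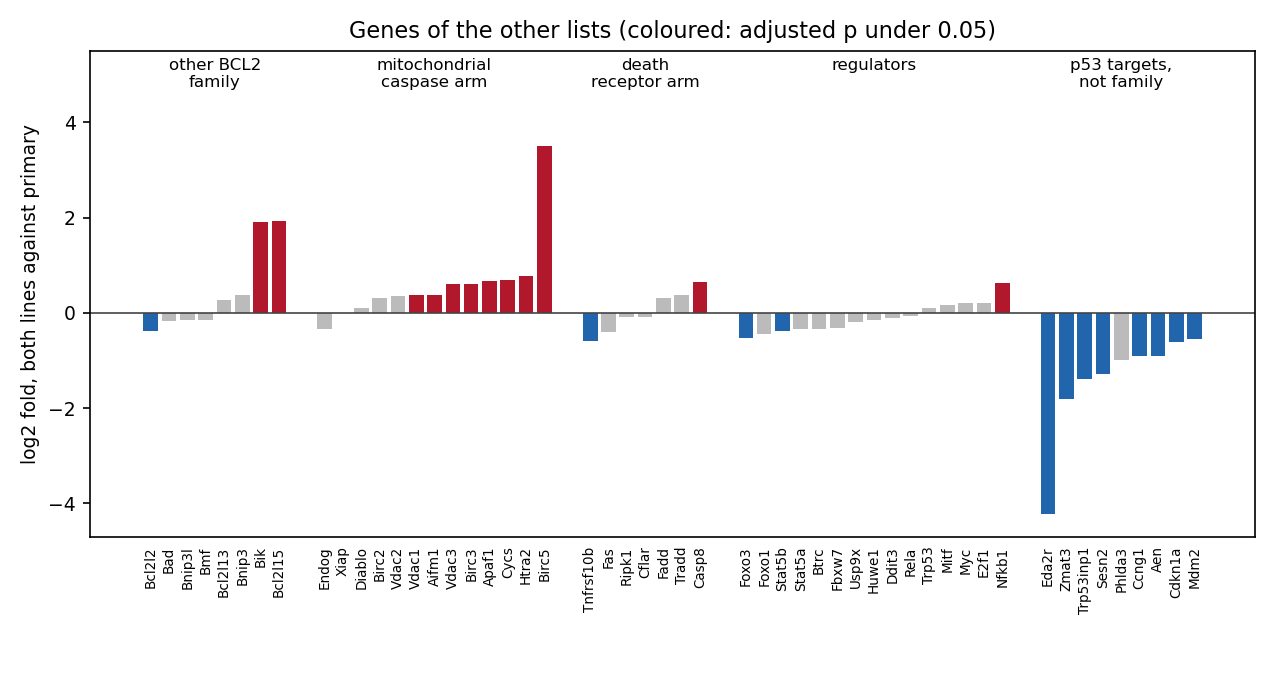
Fitted log2 fold, both lines against the 6 primary cultures, of the tested genes in the 5 further lists, without the 5 caspases of the mitochondrial arm, coloured where the limma adjusted p was under 0.05. Called bars of the mitochondrial caspase arm all point up (6 of 9 release genes and 2 of 4 inhibitors) and those of the p53 targets all point down (8 of 9); the bar of Eda2r depends on the added offset because PMC-306 had 0 counts.

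The genes with the pattern most like Bcl2 and Bak1, the called members with the largest fall and rise, were looked up by Pearson's r of log2 CPM over the 8 libraries, as a description that rests mostly on the gap between lines and primary cultures. For Bcl2 they were Dtx4 (r = 0.997), Gnpda1 (r = 0.996) and Uvrag (r = 0.994), with r within the 6 primary cultures of 0.982, 0.840 and 0.884. Dtx4 stood at 281 CPM in PMC-303, 185 CPM in PMC-306 and 398 to 510 CPM in primary PMCs, and so shared the order PMC-306, PMC-303, primary with Bcl2. For Bak1 they were Nxpe1-ps (r = 0.985), Fam162a (r = 0.984) and Nup133 (r = 0.982), with 0.861, 0.743 and 0.715 within the primary cultures. Nup133, a nuclear pore gene, stood at 61.4 CPM in PMC-303, 41.4 CPM in PMC-306 and 26.6 to 28.4 CPM in primary PMCs.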

How the data were processed

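Total RNA of 8 libraries was prepared with a stranded kit, and the authors ran an nf-core RNA-seq workflow with Trim Galore 0.6.7, STAR 2.7.9a and Salmon 1.5.2 on GRCm39, with the annotation release not given in the sources used here. The deposited tables hold estimated counts and TPM per gene and transcript. A spreadsheet had rewritten 3.37% of the gene count cells as dates or numbers without a point, including 11 of the 80 cells of the members. These count cells were read back from their digits, and a date with 2 readings was settled by the counts of the gene's transcripts. Of the gene TPM cells 20.8% had been rewritten, and in 9465 cells the decimal point was chosen to fit the counts. Deposited TPM here means these restored values, which are thus not independent of the counts. The restored TPM columns summed to 999983 to 1000019. Because the deposited values are not intact counts, limma 3.58.1 (R 4.3.3, trended) was used on log2(CPM + 0.1) in place of a count model. CPM used TMM scaling. Low genes were filtered at about 10 counts in the smallest group, and p-values were adjusted over all genes tested (Benjamini-Hochberg). Transcript names and structures came from GENCODE M39, and promoter windows from RefSeq (GRCm38.p6). All columns of values matched a sample. No library pair had counts within sampling noise of each other. Named genes were all members and, per further list, up to 3 called genes in each direction with the largest fold and those below the filter; for likeness, 3 genes for the called members with the largest rise and fall. Members and lists were chosen with earlier results of these data known. Some genes that this rule names are not reported here. Intervals and floors on counts cover counting error only. Scripts were tested on simulated data. Alternatives were other scaling, offset, filter and weights, deposited TPM, either sex alone and leaving out each library.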

Additional observations from a re-analysis of the deposited data

Results flagged for a closer look

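Tnfrsf10b stood at 6.72 CPM in female culture 2, under the other 5 primary cultures at 8.89 to 10.1 CPM. The gap to the nearest culture was 0.639 of the whole range, beyond Dixon's 95% critical value for 6 samples, in a search of 31 groups of which chance would mark about 1 in 20. Mcl1 stood on opposite sides of the primary range in the lines, with a log2 fold of -0.17 for PMC-303, below every primary culture, and 0.15 for PMC-306, above every primary culture. With 1 library per line this difference was not tested.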

How the results depend on the processing

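The calls of Bcl2, Bcl2l1, Bax and Bbc3 held in 16 of 16 alternatives, Bak1 in 15 and Bid in 12. As reported, limma called 4920 genes, 54.2% of them higher in the lines. Scaling by total counts moved the median log2 fold of all genes to 0.0962 and the higher share to 67.2%, and deposited TPM moved them to 0.127 and 70.8%. With total counts, Mcl1 stood at 0.10, death receptor calls at 2 higher and 0 lower and lower regulator calls at 1; the single-line log2 folds were -0.078 (Mcl1) and 0.64 (Bak1) for PMC-303 and 0.27 and 0.44 for PMC-306. Without the filter, 1 regulator was lower. Female cultures alone gave 2160 calls, 0 members higher, 1 higher and 0 lower further family genes, 5 higher caspase arm genes, 0 lower death receptor genes, 1 lower regulator, 3 lower p53 targets, Bak1 at 0.42 and Bid at -0.47. Male cultures alone gave 3033 calls, 0 lower further family genes, 7 higher caspase arm genes, 1 lower regulator, Mcl1 at 0.045 and Bid at -0.46. Fewer cultures enter these fits. Deposited TPM gave 0 lower further family genes, 2 higher and 0 lower death receptor genes, 0 lower regulators, Mcl1 at 0.13 and Bid at -0.29; single-line folds were -0.053 (Mcl1) and 0.67 (Bak1) for PMC-303 and -1.86 (Bcl2), 0.31 (Mcl1), -0.77 (Bax), 0.48 (Bak1) and -0.35 (Bid) for PMC-306. The difference in leading transcript share became 0.907 points for Bcl2l11 and -0.520 for Bid with TPM. The causes were not tested.

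Leaving out each library gave 3848 to 4664 calls, 1 to 2 members higher and 4 to 6 lower, 1 to 2 lower further family genes, 8 to 12 higher caspase arm genes, 1 to 2 higher and 0 to 1 lower death receptor genes, 1 to 2 higher and 1 to 3 lower regulators and 4 to 9 lower p53 targets. Log2 folds ranged from -0.17 to 0.15 for Mcl1, -0.25 to 0.75 for Bcl2l11, -1.57 to -0.10 for Pmaip1 and -0.58 to -0.35 for Bid. Between the sexes they ranged from -0.073 to 0.16 for Bcl2, -0.0030 to 0.066 for Bak1, -0.24 to 0.061 for Bcl2l11 and -0.077 to 0.11 for Bid. Leading shares ranged from -1.01 to 2.45 points for Bcl2, -2.56 to 1.35 for Bcl2l11 and -0.623 to 3.40 for Bid.

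With the replicate number as a block, the sex comparison called 5 genes in place of 6 and no member by limma either way. Same-numbered cultures had deviations correlated at 0.405, -0.216 and 0.284, and 2 of 6 cultures correlated best with their own number. With so few cultures this cannot tell whether same-numbered cultures share more than a number, and the labels do not say. No paired analysis was possible because the lines have 1 library each for the comparison of lines with primary cultures. Genes near the floor of 0.123 to 0.187 CPM are limited by depth.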
